A study of Mus musculus with 45 samples.

Results

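Cxcl12, Cxcr4 and Ackr3 were followed in neuroepithelial organoids grown from R1 cells, a male mouse embryonic stem cell line of wild-type genotype. These are 3 of the 54532 rows of the gene count table, found by their symbols. They were chosen by their measured values, namely their level in all 45 libraries by arm and time, so each level and difference of the 3 genes given here is a description and carries no test. The organoids grew clonally in Matrigel, a basement membrane extract, in N2B27, a serum-free medium that allows neural differentiation. On day 2 the organoids either stayed in N2B27 alone (untreated) or received 250 nM all-trans retinoic acid (RA). Messenger RNA was sequenced at day 2, before RA, and in each arm at 7 later times, namely 8 and 18 h after that point and then every 12 h from 30 to 78 h. This gave 15 conditions with 3 biological replicates each, of which 21 libraries were untreated, 21 were RA-treated and 3 were from day 2. The protocol text in the labels writes the dose in another unit and the last time points slightly later than the sample titles, whose values are used here. All samples came from 1 cell line, and the RNA was taken from whole organoids, so fewer cells of a type and less RNA per cell cannot be told apart.

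Cxcl12 is a secreted chemokine that guides migrating cells, among them neuronal precursors, neural crest cells and blood progenitors. Cxcr4 is its signalling receptor and couples to inhibitory G proteins. Ackr3, an atypical receptor formerly called Cxcr7, binds Cxcl12 with high affinity, recruits arrestins rather than signalling through G proteins, and clears the ligand from the tissue by internalising it. Where both receptors are present, Ackr3 can thereby shape the amount of Cxcl12 that reaches Cxcr4. RA, the ligand of the nuclear RA receptors, patterns the hindbrain and spinal cord of the embryo.

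On the GRCm38 genome Cxcl12 (ENSMUSG00000061353) lies on chromosome 6 from 117168535 to 117181367 on the plus strand. Cxcr4 (ENSMUSG00000045382) and Ackr3 (ENSMUSG00000044337) share chromosome 1, Cxcr4 from 128588199 to 128592293 on the minus strand and Ackr3 from 90203980 to 90216751 on the plus strand. None of the 3 overlaps another annotated gene. The 250 bases before each transcription start, taken from RefSeq on GRCm38.p6, are shown because the 3 transcripts took different courses in the same libraries. Capitals mark GC boxes (GGGCGG or its reverse CCGCCC) and TATA boxes (TATAAA or its reverse TTTATA), and matches that overlap run together. The promoters lie at chr6:117168285-117168534 (plus strand), chr1:128592300-128592549 (minus strand) and chr1:90203730-90203979 (plus strand).
Cxcl12: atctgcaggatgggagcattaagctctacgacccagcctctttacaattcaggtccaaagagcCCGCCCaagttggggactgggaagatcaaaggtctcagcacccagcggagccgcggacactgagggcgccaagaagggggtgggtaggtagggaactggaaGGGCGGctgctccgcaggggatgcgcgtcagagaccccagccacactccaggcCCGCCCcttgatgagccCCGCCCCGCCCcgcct
Cxcr4: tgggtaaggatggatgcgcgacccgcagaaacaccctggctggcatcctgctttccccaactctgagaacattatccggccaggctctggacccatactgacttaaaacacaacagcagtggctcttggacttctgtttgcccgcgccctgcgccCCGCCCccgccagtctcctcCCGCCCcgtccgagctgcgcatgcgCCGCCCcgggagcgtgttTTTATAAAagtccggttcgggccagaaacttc
Ackr3: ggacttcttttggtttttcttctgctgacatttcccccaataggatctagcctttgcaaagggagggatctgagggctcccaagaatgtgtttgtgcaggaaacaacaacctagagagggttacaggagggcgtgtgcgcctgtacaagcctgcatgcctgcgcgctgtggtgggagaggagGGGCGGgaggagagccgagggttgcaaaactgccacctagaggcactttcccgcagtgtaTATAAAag

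The Cxcl12 window held 5 GC boxes, of which the last pair share 1 base, and no TATA box. The Cxcr4 window held 3 GC boxes and 2 overlapping TATA box matches that begin 32 and 30 bases before the start. The Ackr3 window held 1 GC box and 1 TATA box that begins 8 bases before the start. Of 27025 promoter windows of the same length, 32.9% held a GC box and 13.0% a TATA box on either strand. The core of a nuclear RA receptor site, searched as AGGTCA and its reverse TGACCT, was held by 13.8% of the windows, and these letters were in none of the 3. The hypoxia core ACGTG or its reverse CACGT was held by 16.6% of windows and likewise by none of the 3. GC content was 64.4% for Cxcl12, 61.2% for Cxcr4 and 54.0% for Ackr3, beside a median of 52.0% over all windows.

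The libraries held 17298632 to 39688686 counts, with a median of 25923745. All 8 neuroepithelial markers were detected, and their summed level had a median of 512.1 CPM (the count scaled to library size) at day 2, 1217 CPM in untreated and 1437 CPM in RA-treated organoids at 78 h. Sox2 made up most of the day 2 sum, with a mean of 410.7 CPM, and was lower at 78 h (215.5 CPM untreated and 232.8 CPM with RA). Sox1 and Hes5 had day 2 means of 2.13 and 0.14 CPM and were higher at 78 h in both arms. The 8 markers of pluripotent cells were lower at the end but present, with summed medians of 2046 CPM at day 2 and 627.3 and 499.9 CPM at 78 h. Some libraries stood apart in 4 Y-linked genes, Uty, Kdm5d, Eif2s3y and Ddx3y, of the chromosome that R1 cells carry. The mean of these 4 genes was 1.22 to 3.73 CPM in 6 libraries, namely RA 8 h replicate 3, all 3 untreated libraries of 30 h and RA 30 h replicates 1 and 3, and 22.6 to 89.9 CPM in the other 39. For RA at 8 h and 30 h, the log2FC of the 3 genes and of the listed genes called are given also without RA 8 h replicate 3 and RA 30 h replicate 2, the library of 30 h outside this set. The library numbers in the labels form an earlier and a later series. The earlier series holds day 2 replicates 1 and 2 and the libraries of 8 to 54 h except RA 30 h replicates 2 and 3 and untreated 54 h replicate 3, and all libraries of 66 and 78 h are of the later series. A change from 54 to 66 h and this series can therefore not be told apart, whereas the arms at 66 and 78 h share the later series.

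Levels are in CPM after TMM normalisation over all 45 libraries, and differences between arms are log2 fold changes (log2FC) of RA over untreated, with their standard error (SE), from edgeR fits of the 6 libraries of a time point. Over all genes tested, 1.8% were called at 8 h, 10.9% at 18 h, 8.45% at 30 h, 12.5% at 42 h, 13.2% at 54 h, 11.5% at 66 h and 11.7% at 78 h, where called means an adjusted p under 0.01 and a log2FC beyond 1 in either direction. Since the 3 genes were selected on these contrasts, nothing is read from where they stand in this background.

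**Figure D1:**
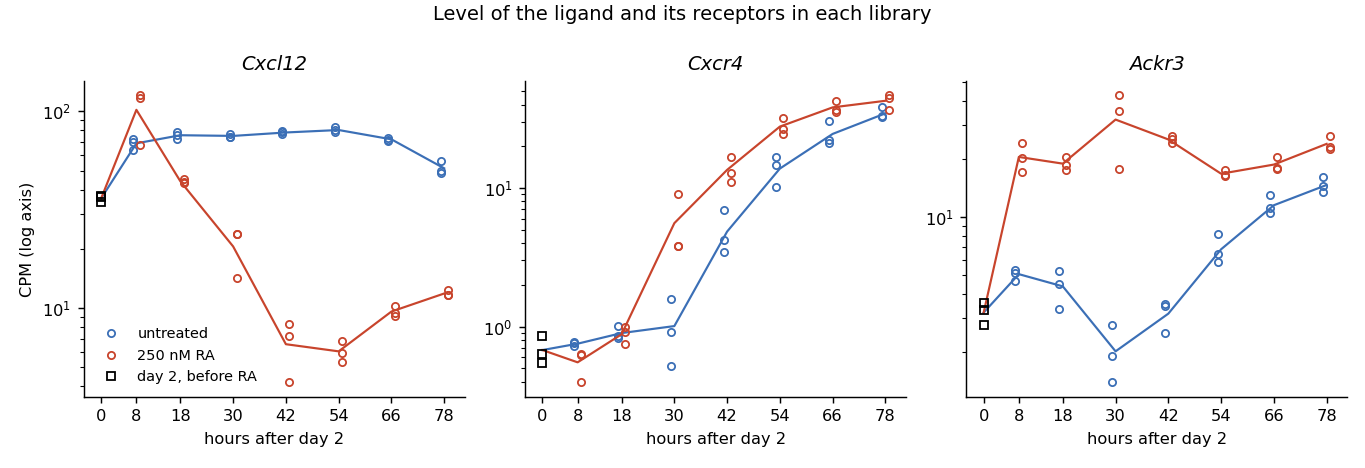
Level of Cxcl12, Cxcr4 and Ackr3 in CPM on a log axis against hours after day 2. Each open point is 1 library (squares, day 2; blue, untreated; red, 250 nM RA) and lines join the means of 3 libraries. Cxcl12 stays between 51.3 and 80.3 CPM on average in untreated organoids and is at 6.02 CPM at 54 h with RA, Cxcr4 is highest late in both arms, and Ackr3 is higher with RA at every time point.

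The ligand was present from the start and was much lower with RA from 30 h on. Cxcl12 stood at 34.75, 37.2 and 36.5 CPM in the day 2 libraries. In untreated organoids it was at 72.4, 63.9 and 69.95 CPM at 8 h, at 72.7, 75.9 and 78.2 CPM at 18 h, and at 74.3, 74.4 and 76.3 CPM at 30 h. The untreated level was therefore higher than at day 2 in every library by 8 h (log2FC 0.95, SE 0.07), and the next time points differed little. It was at 78.5, 76.6 and 79.1 CPM at 42 h and at 82.9, 80.0 and 78.1 CPM at 54 h. Cxcl12 stood at 70.8, 73.6 and 71.7 CPM at 66 h and at 48.4, 55.75 and 49.9 CPM at 78 h, without overlap between 54, 66 and 78 h. The last untreated level was still above that of day 2 (log2FC 0.55, SE 0.07).

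With RA, Cxcl12 was at 117, 120.5 and 67.8 CPM at 8 h. The first 2 replicates lay above every untreated library of that time, and the third, the library with low Y-linked expression, lay within the untreated range. The log2FC at 8 h was 0.58 (SE 0.20), and 0.80 (SE 0.07) without RA replicate 3. At 18 h the RA libraries were at 43.5, 45.4 and 43.4 CPM, all below the untreated ones and all above day 2, with a log2FC of -0.77 (SE 0.05) against untreated.

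Cxcl12 in RA-treated organoids was at 23.75, 14.25 and 23.7 CPM at 30 h, and replicate 2 was the lowest. The log2FC there was -1.88 (SE 0.20), and -1.68 (SE 0.07) without RA replicate 2. The gene reached its lowest levels at 42 h (4.19, 8.29 and 7.17 CPM) and 54 h (6.83, 5.90 and 5.34 CPM). These 2 conditions overlapped each other and lay far below the untreated libraries, with log2FC of -3.56 (SE 0.16) and -3.76 (SE 0.09).

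Cxcl12 with RA was then somewhat higher again, at 9.41, 9.14 and 10.2 CPM at 66 h and at 11.7, 12.3 and 11.6 CPM at 78 h. Each of these steps was without overlap, with means 1.59 and 1.24 times those of the time point before, and the first of them also crosses from the earlier to the later library numbers. The log2FC against untreated was -2.93 (SE 0.06) at 66 h and -2.12 (SE 0.07) at 78 h. Both the RA level and the untreated level had moved, as the untreated mean at 78 h was 0.71 times that at 66 h. From its highest to its lowest mean, Cxcl12 spanned 16.9-fold with RA and 2.22-fold without.

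The signalling receptor was near the detection limit up to 18 h with RA and up to 30 h without, and higher at the later times in both arms. Cxcr4 was at 0.63, 0.85 and 0.55 CPM at day 2, where it rested on 13 to 17 counts. Untreated libraries held 0.73, 0.76 and 0.78 CPM at 8 h, 0.86, 0.83 and 1.01 CPM at 18 h, and 0.52, 1.59 and 0.92 CPM at 30 h. These values rested on 13 to 38 counts and overlapped those of day 2 at each of the 3 times. Untreated Cxcr4 then stood at 4.18, 6.93 and 3.44 CPM at 42 h and at 10.1, 14.6 and 16.7 CPM at 54 h. It was at 21.2, 22.1 and 30.4 CPM at 66 h and at 33.1, 32.45 and 38.1 CPM at 78 h. From 42 h on, each untreated time point lay above the one before without overlap, and the log2FC of 78 h over day 2 was 5.73 (SE 0.14). The step from 30 to 42 h also starts from the untreated libraries with low Y-linked expression.

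With RA, Cxcr4 was at 0.62, 0.64 and 0.40 CPM at 8 h, on 7 to 15 counts, and at 0.75, 0.99 and 0.91 CPM at 18 h. The log2FC at 8 h was -0.41 (SE 0.32), with all RA libraries below all untreated ones, and -0.24 (SE 0.38) without RA replicate 3, whose 7 counts were the fewest. At 18 h the arms overlapped, with a log2FC of -0.03 (SE 0.27).

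Cxcr4 at 30 h with RA was at 3.79, 9.10 and 3.84 CPM, all above the untreated libraries and with replicate 2 the highest. The log2FC was 2.49 (SE 0.51), and 1.98 (SE 0.30) without RA replicate 2, against untreated libraries with 14 to 26 counts. RA-treated levels went on to 16.75, 12.8 and 10.98 CPM at 42 h and to 32.1, 26.8 and 24.4 CPM at 54 h. The log2FC was 1.47 (SE 0.23) and 0.98 (SE 0.16) at these times, and no RA library overlapped an untreated one.

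At 66 h Cxcr4 stood at 36.3, 35.6 and 42.6 CPM with RA, still above every untreated library (log2FC 0.62, SE 0.12). At 78 h it stood at 36.8, 44.4 and 46.6 CPM, the arms overlapped, and the log2FC was 0.30 (SE 0.09). The difference between arms thus went from 2.49 at 30 h down to 0.30 at 78 h while the mean of each arm was higher at each later time point. The highest and the lowest mean lay 77.04-fold apart with RA and 51.0-fold apart without.

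From 18 h on, the RA course of Cxcr4 was close to the untreated course of the next time point, 12 h later. RA-treated libraries at 18, 30, 42, 54 and 66 h overlapped the untreated libraries of 30, 42, 54, 66 and 78 h in 5 of 5 pairs. The ratios of the means lay between 0.87 and 1.15. Without RA 30 h replicate 2 the ratio of its pair was 0.79 in place of 1.15, and the libraries still overlapped. Neither of the other genes showed this, as Ackr3 overlapped in 0 of 5 such pairs (ratios 1.28 to 10.2) and Cxcl12 in 0 of 5 (ratios 0.08 to 0.59). For RA 30 h without replicate 2 these ratios were 12.4 for Ackr3 and 0.30 for Cxcl12, again without overlap. The pairing by 12 h was picked after the values were seen, and the share of all genes that overlap in this way was not determined. For Cxcr4 the pair of RA 18 h and untreated 30 h lay near the detection limit, with means of 0.88 and 1.01 CPM. RA 18 h also overlapped untreated 18 h, so this pair says little about a shift in time. RA 8 h and untreated 18 h, which are not 12 h apart, did not overlap for Cxcr4, with means of 0.55 and 0.90 CPM. Galnt16, a gene like Cxcr4 in pattern, had RA means of 3.23, 7.53, 16.1, 23.9 and 25.3 CPM from 18 to 66 h. Its untreated means from 30 to 78 h were 3.94, 7.37, 12.6, 18.8 and 27.1 CPM. The pairs with untreated 30 h and RA 30 h also set libraries with low Y-linked expression against others without it.

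**Figure D2:**
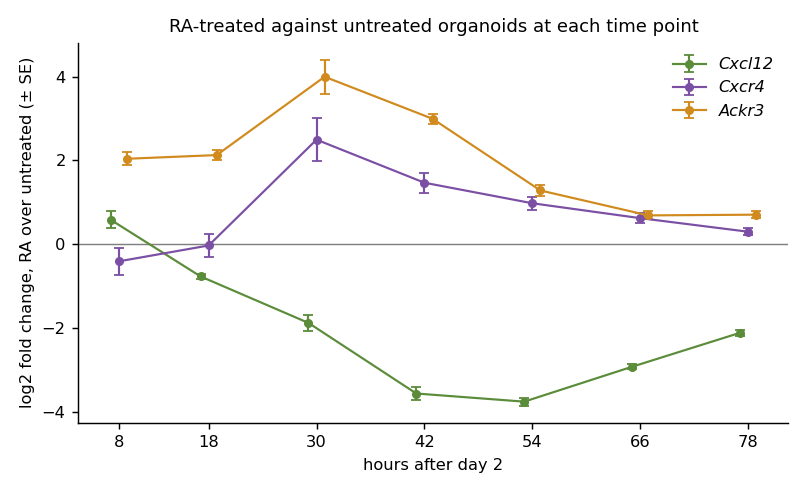
Log2 fold change of RA-treated over untreated organoids at each time point for the 3 genes, with bars for the standard error of the edgeR fit of 6 libraries. Cxcl12 goes from 0.58 at 8 h to -3.76 at 54 h, Cxcr4 peaks at 2.49 at 30 h, and Ackr3 is at 2.04 by 8 h and peaks at 3.995 at 30 h.

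The scavenging receptor was higher with RA from the first time point measured. Ackr3 was at 3.28, 3.57 and 2.74 CPM at day 2. In untreated organoids it was at 5.14, 4.69 and 5.34 CPM at 8 h, at 5.28, 3.33 and 4.50 CPM at 18 h, and at 1.39, 1.89 and 2.75 CPM at 30 h. The untreated gene had its lowest mean at 30 h, 2.01 CPM, in the 3 libraries with low Y-linked expression. It stood at 2.50, 3.52 and 3.44 CPM at 42 h and at 5.84, 8.18 and 6.40 CPM at 54 h. Untreated Ackr3 was at 10.47, 11.1 and 13.0 CPM at 66 h and at 13.5, 14.4 and 16.1 CPM at 78 h. The steps from 42 h on were without overlap, and 78 h lay above day 2 with a log2FC of 2.25 (SE 0.13).

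With RA, Ackr3 was at 20.3, 24.2 and 17.1 CPM at 8 h. Every RA library lay above every untreated one, and above day 2 with a log2FC of 2.72 (SE 0.18), or 2.83 (SE 0.13) without RA replicate 3. Against untreated the log2FC was 2.04 (SE 0.16), and 2.15 (SE 0.12) without RA replicate 3. The RA libraries of 18 h, at 17.55, 18.7 and 20.6 CPM, overlapped those of 8 h and lay above the untreated ones (log2FC 2.13, SE 0.13).

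Ackr3 at 30 h with RA was at 42.85, 17.85 and 35.6 CPM, where replicate 2 was the lowest. The log2FC was 3.995 (SE 0.40), and 4.30 (SE 0.16) without that replicate. RA-treated levels were 24.2, 26.3 and 25.4 CPM at 42 h and 17.6, 16.3 and 16.6 CPM at 54 h. The log2FC was 2.99 (SE 0.12) at 42 h and 1.28 (SE 0.13) at 54 h.

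Ackr3 with RA stood at 17.7, 20.45 and 18.1 CPM at 66 h and at 23.1, 22.5 and 26.4 CPM at 78 h. The arms did not overlap at either time, with a log2FC of 0.69 (SE 0.10) and 0.70 (SE 0.09). Across the 7 time points the RA means lay between 16.8 and 32.1 CPM, or up to 39.2 CPM at 30 h without replicate 2, while the untreated mean went from 2.01 to 14.7 CPM between 30 and 78 h.

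RA 30 h replicate 2 was the extreme library of its condition for all 3 genes, and it also differed in markers of other cell types. Its summed level of 7 definitive endoderm markers was 45.2 CPM, against 13.0 and 11.3 CPM in replicates 1 and 3. The 8 mesenchyme markers summed to 42.0 CPM against 19.8 and 20.4 CPM, and the 7 endothelium markers to 54.9 CPM against 24.0 and 21.7 CPM. At 8 h, RA replicate 3 likewise differed from replicates 1 and 2, with 1643 CPM against 1232 and 1141 CPM for the summed pluripotency markers. In RA 30 h replicate 2 the 8 neuroepithelial markers summed to 778.2 CPM against 1059 and 974.1 CPM. The library numbers of RA 30 h replicates 2 and 3 belong to a later series than those of replicate 1 and of untreated 30 h. With replicate 1 as the only RA library, the log2FC was -1.67 for Cxcl12, 1.97 for Cxcr4 and 4.43 for Ackr3. The part of these differences between libraries in the values at 30 h was not tested.

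The 15 conditions were also ranked by their mean for each gene. Of 14 pairs of neighbours in rank, the libraries overlapped in 6 for Cxcl12, in 10 for Cxcr4 and in 9 for Ackr3. The same count over all genes was not determined, so it is not read as a trait of these genes. For Cxcl12 the upper end was RA 8 h followed by untreated 54, 42, 18 and 30 h, each overlapping the next. The order then went on through untreated 66, 8 and 78 h, RA 18 h, day 2 and RA 30, 78, 66, 42 and 54 h, and of these neighbours only untreated 66 and 8 h, and RA 42 and 54 h, overlapped. For Cxcr4 the order was RA 78 h, RA 66 h, untreated 78 h, RA 54 h, untreated 66 h, untreated 54 h, RA 42 h, RA 30 h and untreated 42 h. The 6 lowest Cxcr4 conditions, all of 30 h or earlier, lay between 0.55 and 1.01 CPM on average, and each overlapped its neighbour. Their libraries held only 7 to 38 Cxcr4 counts. For Ackr3 the 7 RA conditions held the 7 highest means, followed by untreated 78, 66, 54, 8 and 18 h, day 2 and untreated 42 and 30 h. RA 30, 42, 78, 8, 18 and 66 h overlapped as neighbours, as did untreated 8 h and the conditions ranked after it.

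Levels of different genes were compared per kilobase (kb) of merged exon length, which is 8176 bases for Cxcl12, 1808 for Cxcr4 and 3348 for Ackr3. At day 2 the mean levels were 4.42 CPM per kb for Cxcl12, 0.37 for Cxcr4 and 0.95 for Ackr3. The ratio of Cxcr4 to Ackr3 per kb was 0.36, 0.44 and 0.37 in the day 2 libraries, so that Ackr3 was the more abundant receptor transcript.

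In untreated organoids the ratio of Cxcr4 to Ackr3 had a mean of 0.28 at 8 h, 0.39 at 18 h and 0.96 (0.62 to 1.55) at 30 h. It was 2.86 (1.85 to 3.64) at 42 h and 4.36 (4.16 to 4.54) at 78 h, so that Cxcr4 was the more abundant transcript in every untreated library from 42 h on. With RA the ratio was 0.05 (0.04 to 0.06) at 8 h and 0.09 (0.08 to 0.10) at 18 h. It was 0.16, 0.94 and 0.20 in the RA libraries of 30 h, of which replicate 2 was again the one apart. At 42 h it was 1.28, 0.90 and 0.80, and at 54 h it was 3.38, 3.05 and 2.73. The balance between the receptors thus passed 1 between 30 and 42 h without RA and around 42 h with RA. At 66 h the arms overlapped, with means of 3.92 untreated and 3.795 with RA, and at 78 h the RA libraries, at 2.95 to 3.65, lay below the untreated ones.

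The ratio of the Cxcl12 transcript to the sum of both receptor transcripts per kb was above 1 at day 2 and below 1 at 78 h in both arms. It was 3.38 on average at day 2. Without RA it was 8.75 (6.30 to 12.9) at 30 h, 2.79 at 42 h, 1.06 (0.86 to 1.38) at 54 h and 0.27 at 78 h. With RA it was 1.91 at 8 h, 0.88 (0.80 to 0.94) at 18 h and 0.20 at 30 h. Its lowest RA mean was 0.04, at 54 h, and it was 0.05 at 78 h. With the longest annotated transcript in place of merged exons, this ratio was 1.502 rather than 1.06 in untreated organoids at 54 h and 1.18 rather than 0.88 with RA at 18 h. The value with RA at 18 h thus lay on the other side of 1.

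**Figure D3:**
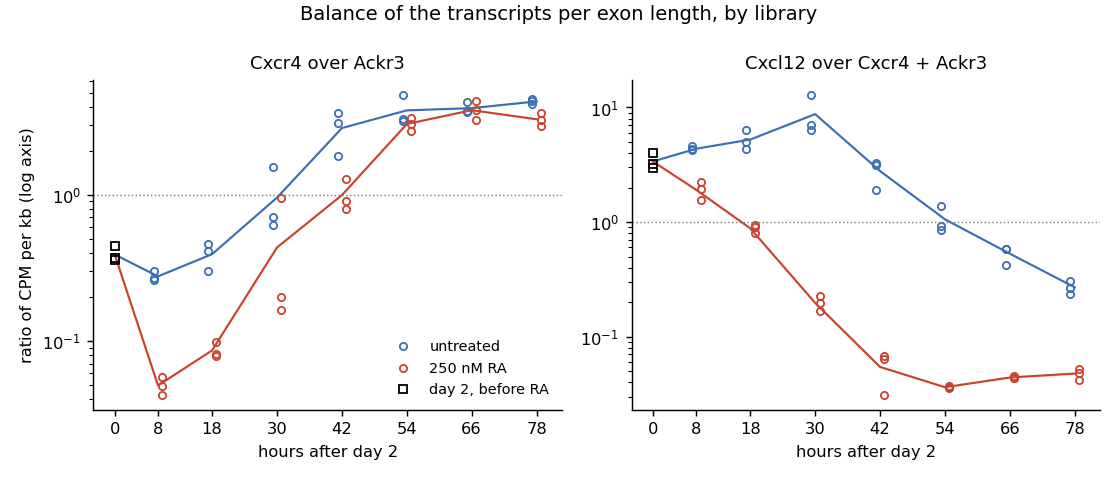
Ratio of transcript levels per kb of exon in each library on a log axis against hours after day 2, for Cxcr4 over Ackr3 (left) and for Cxcl12 over both receptors (right). Points are libraries, lines join means, and the dotted line marks equal levels. Cxcr4 over Ackr3 is 0.05 with RA and 0.28 without at 8 h and near 4 in both arms at 66 h, while Cxcl12 over the receptors reaches 0.04 with RA and 0.27 without.

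The rest of the chemokine system was read from 7 lists with 100 genes, which leave out the 3 genes above. Most chemokines and chemokine receptors were hardly detected. Under 10 counts in every library were found for 7 of 14 other CXC ligands, 17 of 21 CC, CX3C and XC ligands and 15 of 21 other chemokine receptors. Of the 100 genes, 46 to 52 passed the filter on low counts at a time point. Called with RA were 3 of 46 tested genes at 8 h (0 rose and 3 fell), 8 of 48 at 18 h (5 and 3) and 6 of 47 at 30 h (4 and 2). At the later times 8 of 50 were called at 42 h (4 and 4), 11 of 51 at 54 h (4 and 7), 9 of 51 at 66 h (5 and 4) and 10 of 52 at 78 h (7 and 3). These are shares of 6.52%, 16.7%, 12.8%, 16.0%, 21.6%, 17.6% and 19.2%, beside the background shares of 1.8%, 10.9%, 8.45%, 12.5%, 13.2%, 11.5% and 11.7% over all genes. The lists were chosen with earlier results of these data known, so nothing is read from the higher shares of the listed genes. The median log2FC of the listed genes lay between -0.01 and 0.14, and that of all genes between -0.01 and 0.04. The count of 6 at 30 h rested on each untreated library of 30 h, since it was 1, 0 and 2 in edgeR without replicates 1, 2 and 3 in turn. Where it was 0, 16 listed genes had an unadjusted p under 0.05, and DESeq2 on all 6 libraries called 7. At 8 h the count was 5 of 47 tested without RA replicate 3, a fit in which 833 of 16329 genes were called over all genes.

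Cxcl11, the other chemokine ligand of Ackr3, had means of 0.01 to 0.47 CPM and passed the filter at no time point. Mif, a cytokine that can bind Cxcr4, was abundant, with means of 203.9 to 314.8 CPM, and its edgeR log2FC, from -0.48 to -0.08, stayed inside the fold threshold at all 7 time points. From 42 to 78 h Mif was lower with RA without overlap, with an edgeR adjusted p of 4.93e-05 to 0.000251. Cd74, the cell-surface partner of Mif, rose with RA at 18 h and from 42 to 78 h. Its log2FC was 2.20 (SE 0.30, adjusted p = 0.000136) at 42 h, with means of 0.45 CPM untreated and 2.13 CPM with RA. The call at 18 h (log2FC 1.22, SE 0.30, adjusted p = 0.0037) was lost without RA replicate 1 or 3 or untreated replicate 1 or 3, where the adjusted p was 0.0129 to 0.0186, and in DESeq2 (adjusted p = 0.0116). The Cd74 value at 30 h, 2.61 (SE 0.65, adjusted p = 0.0219), missed the threshold, and without RA replicate 2 it was 1.79 and passed (adjusted p = 0.00387).

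Adm encodes adrenomedullin, a peptide that Ackr3 can also take up. It fell with RA from 42 to 78 h, with log2FC of -2.20 (SE 0.44), -2.90 (SE 0.39), -2.29 (SE 0.20) and -2.24 (SE 0.28) and adjusted p of 0.00173, 0.00012, 1.07e-05 and 6.02e-05. At 8 h its log2FC of 1.05 had an adjusted p of 0.395, and without RA replicate 3 it was 1.55 and passed (adjusted p = 0.0024). At 78 h its mean was 1.64 CPM with RA and 7.80 CPM without. Ramp2, a subunit of the adrenomedullin receptor, fell at 6 of 7 time points, with log2FC between -1.80 at 18 h and -1.02 at 42 h. The call at 30 h (log2FC -1.45, adjusted p = 0.00157, and -1.58 without RA replicate 2) was lost without untreated replicate 2 (adjusted p = 0.0107), and that at 42 h without RA replicate 2 or untreated replicate 1 (log2FC -0.995 and -0.969). At 8 h its log2FC of -1.27 had an adjusted p of 0.0155, and without RA replicate 3 it was -1.20 and passed (adjusted p = 0.000499). Calcrl, the receptor to which Ramp2 binds, rose at 18 h (log2FC 1.05, adjusted p = 0.000837), and at 30 h it had 0.81 (adjusted p = 0.0959), or 1.07 (adjusted p = 0.000348) without RA replicate 2. In the list of 9 non-chemokine ligands and partners, which also holds Dpp4, a peptidase that can cleave Cxcl12, Dpp4 fell at 54 h (log2FC -1.26, adjusted p = 0.00134). Calcrl and Dpp4 were picked after their values were seen, as the small counts contain them.

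Ackr4, the atypical receptor that scavenges Ccl19, Ccl21 and Ccl25, differed in direction between early and late times. It rose at 18 h (mean 14.1 CPM with RA and 3.33 CPM without; log2FC 2.11, SE 0.15, adjusted p = 1.37e-07) and at 30 h (log2FC 2.51, SE 0.33, adjusted p = 0.00174). The log2FC at 30 h was 2.72 without RA replicate 2, and the call was lost without untreated replicate 1 or 2 (adjusted p = 0.0125 and 0.0149). Ackr4 fell at 54 h (log2FC -2.25, SE 0.33, adjusted p = 0.000219) and at 66 h (log2FC -1.74, SE 0.32, adjusted p = 0.00143). At 8 h the mean was 11.05 CPM with RA and 3.65 CPM without, with a log2FC of 1.62 (SE 0.47, adjusted p = 0.0695), and 2.02 (adjusted p = 4.86e-09) without RA replicate 3. Of the other chemokine receptors, Ccr4 rose at 66 h, Cxcr2 and Ccrl2 rose at 78 h, and Ackr1 fell at 54 h. The calls were kept in 3 of 6 fits with 1 library left out for Ccr4, in 4 of 6 for Ackr1 and in 6 of 6 for the other two. These 4 were named after their values were seen, and Cxcr2 and Ccrl2 had at most 40 and 30 counts in any library.

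Among the remaining chemokines, Cxcl14, which has been reported to bind Cxcr4, rose at 18 h (log2FC 1.601, SE 0.24, adjusted p = 0.000102), from a mean of 0.88 CPM to 2.69 CPM. Cx3cl1, the membrane-bound ligand fractalkine, rose at 30 h (log2FC 1.70, SE 0.31, adjusted p = 0.00611) and at 42 h (log2FC 1.07, SE 0.11, adjusted p = 2.47e-05), while its untreated mean was 0.93 CPM at 8 h and 12.5 CPM at 78 h. The call at 30 h held without RA replicate 2 and was lost without any other library of that time, with adjusted p of 0.0124 to 0.0336. Without RA replicate 2 the 30 h log2FC of Cx3cl1 was 1.63. Cxcl10, named after its values were seen, had a log2FC of 1.31 at 66 h (adjusted p = 0.00771), a call that 0 of the 6 fits with 1 library left out kept and that DESeq2 did not make.

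**Figure D4:**
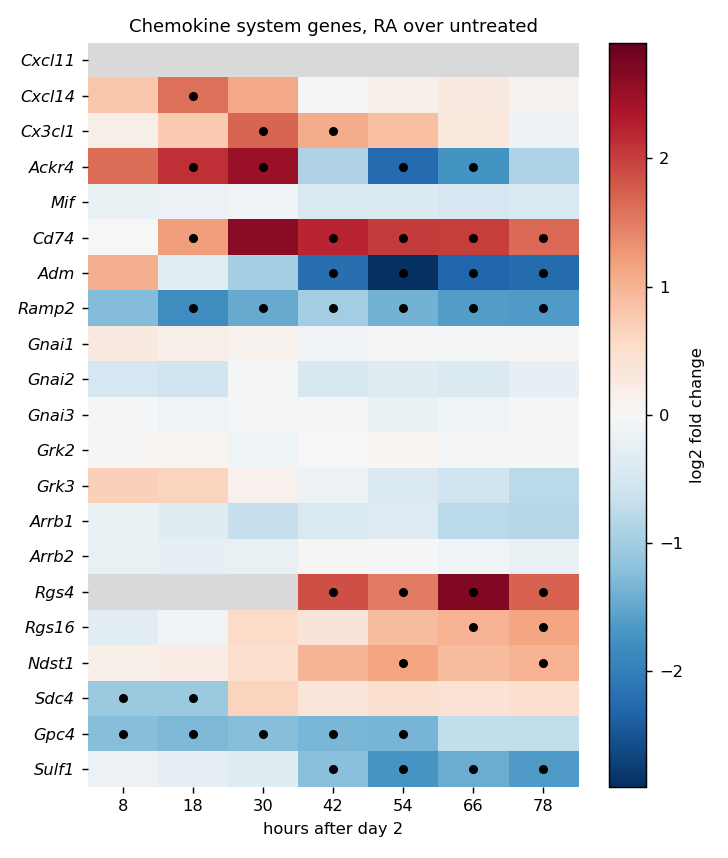
Log2 fold change of RA over untreated for the named chemokine system genes (rows) at each time point (columns), red above and blue below 0. Black dots mark calls at an adjusted p under 0.01 and a log2FC beyond 1, and grey marks genes that did not pass the filter on low counts. Adm, Ramp2 and Sulf1 are blue at the later times, Cd74 and Rgs4 are red, and Ackr4 goes from 2.51 at 30 h to -2.25 at 54 h.

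Inside the cell, Cxcr4 acts through G proteins, and kinases and arrestins act on both receptors. The inhibitory G protein subunits Gnai1, Gnai2 and Gnai3 stayed inside the fold threshold at all 7 time points, with edgeR log2FC between -0.58 and 0.26. Grk2 and Grk3, kinases that phosphorylate active receptors, and the arrestins Arrb1 and Arrb2, which bind the phosphorylated receptors, likewise stayed inside it, with log2FC between -0.82 and 0.69. Gnai2 was lower with RA without overlap at every time except 30 h, with a log2FC of -0.58 (SE 0.05, adjusted p = 4.17e-07) at 18 h. Grk3 had a log2FC of 0.65 (SE 0.08, adjusted p = 2e-05) at 18 h and of -0.78 (SE 0.07, adjusted p = 8.67e-06) at 78 h. Arrb1 had a log2FC of -0.82 (SE 0.09, adjusted p = 2.55e-05) at 78 h. Of the 9 G protein subunits, Gng2 fell at 8 h (log2FC -1.23, adjusted p = 0.000579) and Gnb4 rose at 30 h (log2FC 1.09, adjusted p = 0.00132). Without the library that stood apart at each time they had -1.23 and 1.19, and the call of Gnb4 was kept in 3 of 6 fits with 1 library left out. Both were named after their values were seen.

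Rgs4 and Rgs16 shorten signalling by speeding up the GTP hydrolysis of inhibitory G proteins. Rgs4 rose from 42 h on, with a log2FC of 1.86 (SE 0.39, adjusted p = 0.00246) at 42 h and 2.68 (SE 0.23, adjusted p = 8.17e-06) at 66 h, where its mean was 4.88 CPM with RA and 0.74 CPM without. Its call at 54 h (log2FC 1.501, SE 0.37, adjusted p = 0.00564) was lost when the replicate number was a block (adjusted p = 0.0115), in DESeq2 (adjusted p = 0.0103) and without any library of that time except untreated replicate 2 (adjusted p = 0.0123 to 0.0325). The call at 42 h was lost without RA replicate 2 or 3 or untreated replicate 1 or 3 (adjusted p = 0.0104 to 0.0123) and in DESeq2 (adjusted p = 0.0122). Rgs16 rose at 66 h (log2FC 1.00, SE 0.18, adjusted p = 0.00108) and 78 h (log2FC 1.14, SE 0.10, adjusted p = 4.36e-06). The value at 66 h was inside the fold threshold without RA replicate 1 (0.944) or untreated replicate 1 or 2 (0.825 and 0.995). It was also inside it without the filter on low counts (0.987). Of the 10 genes of this list, which also holds the kinase gene Grk4, named after its values were seen, Grk4 rose at 18 h (log2FC 1.67, adjusted p = 0.00107), and at 30 h it had 1.24, or 1.31 (adjusted p = 0.00328) without RA replicate 2.

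Chemokines are held in the tissue by heparan sulphate, and 16 genes for its synthesis and carriers were listed. Gpc4, a glypican, fell from 8 to 54 h, with log2FC between -1.34 and -1.23, and had -0.72 at 66 h and -0.71 at 78 h. Without the library that stood apart, its log2FC was -1.25 at 8 h and -1.55 at 30 h. Its call at 30 h (adjusted p = 0.00864) held without RA replicate 2 and was lost without any other library of that time, with adjusted p of 0.0153 to 0.0391. Sdc4, a syndecan, fell at 8 h (log2FC -1.08, SE 0.15, adjusted p = 0.00596) and 18 h (log2FC -1.07, SE 0.06, adjusted p = 2.13e-08), and from 30 h on had log2FC between 0.35 and 0.64. The call at 8 h was lost without any 1 of the 6 libraries, since the log2FC was -0.93 without RA replicate 3 and the adjusted p was 0.0153 to 0.0497 without the others. With the replicate number as a block, the adjusted p at 8 h was 0.0286.

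Sulf1, which removes sulphate groups from heparan sulphate, fell from 42 to 78 h, and its log2FC of -1.71 (SE 0.13, adjusted p = 1.79e-06) at 54 h was the lowest. Its mean there was 95.2 CPM with RA and 306 CPM without. Ndst1, which adds sulphate to the growing chain, rose at 54 h (log2FC 1.15, SE 0.07, adjusted p = 2.13e-07) and 78 h (log2FC 1.01, SE 0.10, adjusted p = 8.53e-06), and it had 0.98 and 0.93 at 42 and 66 h. With the replicate number as a block, the value at 78 h was 0.998 and missed the fold threshold, as it did without RA replicate 2 or 3 or untreated replicate 1 or 2 (0.892 to 1.0). Hs6st1 rose at 30 h, Hs6st2 at 42 h, Sdc3 at 54 h and Hs3st1 at 78 h, and these 4 were named after their values were seen. Hs6st1 had a log2FC of 1.21, and 1.36 without RA replicate 2, and the calls of Hs6st1 and Hs3st1 were each kept in 3 of 6 fits with 1 library left out.

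The genes most like each of the 3 were sought by Pearson r over the 15 condition means of log2(CPM + 1), among 11151 genes with a mean of at least 5 CPM. The means share normalisation and libraries, so r is a description with no p. Cxcl12 was followed by Ubr7, a ubiquitin ligase gene (r 0.96), by the predicted gene Gm11627 (r 0.95) and by the kinase gene Pak1 (r 0.95). Ubr7 covered a smaller range, from 209.2 CPM in untreated organoids at 42 h to 117.6 CPM with RA at 54 h. Cxcr4 was followed by Galnt16, a glycosyltransferase gene, by Nr2f2, the orphan nuclear receptor COUP-TFII, and by the zinc finger gene Zfp41, each with an r of 0.99. Nr2f2 was at 0.07 CPM in untreated and 6.14 CPM in RA-treated organoids at 30 h, and at 57.1 and 51.6 CPM at 78 h.

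Ackr3 was followed by Nck1, an adaptor protein gene (r 0.95), Nrip1, a corepressor gene known to respond to RA (r 0.95), and Fbln1, an extracellular matrix gene (r 0.95). Nrip1 stood at 15.2 CPM in untreated and 157.2 CPM in RA-treated organoids at 8 h, and at 62.6 and 102 CPM at 78 h. Nck1 and Fbln1 covered smaller ranges than Ackr3. Nck1 means went from 28.5 CPM untreated to 41.1 CPM with RA, both at 30 h. Fbln1 means went from 35.1 CPM untreated at 30 h to 68.2 CPM with RA at 42 h. By Spearman rho over the conditions, Nr2f2 ranked 996 for Cxcr4 and Nrip1 ranked 82 for Ackr3. Over the 45 libraries Nr2f2 and Nrip1 each ranked 1 for its gene. Nck1 and Fbln1 ranked 2 and 7 for Ackr3 by rho, and 43 and 40 over the 45 libraries. Among the 3 genes themselves r was 0.50 between the receptors, -0.57 between Cxcl12 and Cxcr4 and -0.60 between Cxcl12 and Ackr3.

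**Figure D5:**
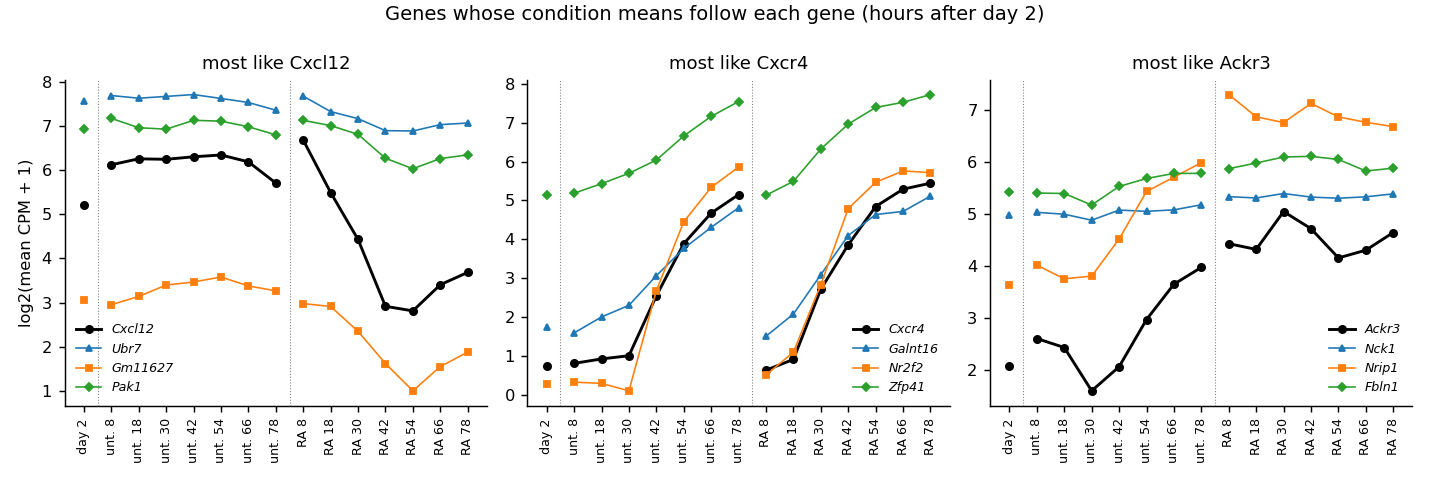
Mean level as log2(CPM + 1) in the 15 conditions for each gene (black) and the 3 genes with the highest Pearson r to it (coloured), with lines within an arm and dotted lines between day 2, untreated and RA. The genes like Cxcr4 rise late in both arms, and Nrip1 and Ackr3 are high from RA 8 h on. Cxcl12 is lowest at RA 42 and 54 h, and its like genes have their lowest means at RA 54 h.

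Markers of cell types that can express these genes were summed beside them. The 6 blood markers summed to medians of 1.38 to 5.80 CPM, and Ptprc, which marks nearly all white blood cells, had under 10 counts in every library. The 7 endothelium markers had a median of 133.4 CPM at day 2 and of 21.4 CPM untreated and 60.7 CPM with RA at 78 h. With RA the list went from 147.1 CPM at 8 h to 60.7 CPM at 78 h. Over that span 2 of its genes had higher means, Cdh5 (0.07 and 23.9 CPM) and Kdr (0.68 and 3.50 CPM). Lower means were found for Pecam1 (118 and 26.8 CPM), which pluripotent cells also express, Tek (9.48 and 3.64 CPM), Cldn5 (1.96 and 0.47 CPM) and Tie1 (1.24 and 0.50 CPM), and Emcn had under 10 counts in every library. The 9 mesoderm markers had medians of 49.75 CPM at day 2 and of 16.4 and 18.9 CPM at 78 h, with Mesp1 and Msgn1 under 10 counts in every library. The 8 mesenchyme markers went from 6.41 CPM to 48.5 CPM untreated and 31.1 CPM with RA.

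The 8 neural crest markers summed to 82.3 CPM at day 2, to 16.4 CPM with RA and 57.25 CPM without at 8 h, and to 111.5 CPM with RA and 60.9 CPM without at 78 h. The 6 neuron markers had medians of 124.4 CPM with RA and 250.2 CPM without at 42 h, 119.8 and 291.1 CPM at 54 h, and 370.2 and 288.8 CPM at 78 h. Of these, Stmn2 alone had means of 16.6 CPM with RA and 186.7 CPM without at 54 h, and 43.0 and 160.2 CPM at 78 h. At 54 h Tubb3, Dcx and Elavl4 had higher means with RA, and Elavl3 and Map2 lower ones. At 78 h Tubb3, Dcx, Elavl3, Elavl4 and Map2 all had higher means with RA. The 7 cranial motor neuron markers had 43.8 CPM with RA and 14.8 CPM without at 42 h, 43.3 and 33.0 CPM at 54 h, and 18.3 and 38.1 CPM at 78 h. The signs of both sums thus differed between 42 and 78 h, whereas Stmn2 had a lower mean with RA at both times. The 7 definitive endoderm markers were at 35.4 CPM with RA and 6.67 CPM without at 78 h, and the 6 extraembryonic endoderm markers at 124.2 and 62.2 CPM. The part of these cell types in the levels of Cxcl12, Cxcr4 and Ackr3 was not tested.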

How the data were processed

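RNA was sequenced from 45 libraries of organoids, single end, with a directional poly(A) kit. The deposited values are raw counts per gene that the authors made by trimming reads (Trim Galore 0.5.0), removing abundant sequences (Bowtie2 2.3.4.1), aligning to GRCm38 with STAR and counting Ensembl genes with featureCounts (Subread 1.6.2). The strand setting of the counting is not given in the sources used here. Totals ran from 17298632 to 39688686 counts, and low counts limit precision, as for Cxcr4 up to 18 h and, without RA, at 30 h.

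Groups came from the sample titles. In each time point, edgeR 4.0.16 (R 4.3.3) was run on its 6 libraries with TMM factors, a quasi-likelihood test, Benjamini-Hochberg adjustment over all genes tested, a prior count of 0.125, and a filter of 10 counts in enough libraries and 15 in total. Called means an adjusted p under 0.01 and a log2FC beyond 1. The SE is the log2FC over the root of the quasi-likelihood F. The same fit set each arm against day 2. CPM used TMM over all libraries, and lengths came from GENCODE M21, which may differ from the annotation the authors counted. Tables were made in Python 3.11.15 with pandas 2.3.3, numpy 2.4.6 and scipy 1.17.1. The scripts were tested on simulated data.

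The 3 genes, the 7 gene lists and the 11 marker lists were chosen with earlier results of these data known. Of the lists, the genes named were those called at 2 or more time points with a mean of at least 1 CPM over the 42 libraries after day 2, and always Cxcl11, Cxcl14, Mif, Cd74, Adm, Ackr4, Gnai1, Gnai2, Gnai3, Grk2, Grk3, Arrb1 and Arrb2. Genes named beyond this rule are marked. The 3 genes most like each of the 3 were taken by Pearson r, and cell type markers were named where needed to check the tissue. Alternatives were RLE factors, library totals, other filters, a prior count of 2, DESeq2 1.42.0, 1 fit of all libraries, the replicate number as a block, a looser threshold, the earlier library numbers only, and each library left out. At 66 h the deviations of RA and untreated libraries from their group means correlated at 0.434, 0.149 and 0.195 for the replicate numbers 1 to 3. These same-number values were also all positive at 30 h (0.063, 0.182 and 0.192), 54 h (0.103, 0.039 and 0.048) and 78 h (0.268, 0.024 and 0.283). They were not all positive at 8, 18 and 42 h. Whether the replicate numbers pair the arms was not tested.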

Additional observations from a re-analysis of the deposited data

Results flagged for a closer look

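In Cxcr4, Ackr4, Sdc4, Grk3 and Rgs16, all RA libraries lay above all untreated libraries at 1 time point and all below at another. Rgs4 also did so, above from 42 h on and below at 18 h. Its means at 18 h were 0.06 CPM with RA and 0.17 CPM without, where it did not pass the filter. The share of all genes with such a switch was not determined, so nothing is read from their number. The difference between the time points was not tested in any of them, and the groups of 3 libraries are below the size for which the check of a sample's distance from the others was run. Cxcr4 had a log2FC of 2.49 at 30 h and -0.41 at 8 h, a difference of 2.9, with 7 to 15 counts in the RA libraries of 8 h. Ackr4 had 2.51 at 30 h and -2.25 at 54 h, a difference of 4.75. Sdc4 had 0.64 at 30 h and -1.08 at 8 h, a difference of 1.72. Grk3 had 0.69 at 8 h and -0.78 at 78 h, a difference of 1.47. Rgs16 had 1.14 at 78 h and -0.31 at 8 h, a difference of 1.44.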

How the results depend on the processing

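Cxcl12, Cxcr4 and Ackr3 kept their direction between arms under every alternative except Cxcr4 at 18 h, where the log2FC was 0.083 with library totals and -0.127 to 0.075 with 1 library left out (0.075 without RA replicate 1, 0.065 without untreated replicate 3). Library totals moved the median log2FC of all genes by 0.016 to 0.138 between arms and by up to 0.199 against day 2. With them Cxcl12 at 18 h was -0.655. Against day 2 they gave Cxcl12 in untreated organoids 1.147, 1.252, 1.299, 1.154 and 0.683 at 18, 42, 54, 66 and 78 h. With RA they gave Cxcl12 0.492, -2.401, -1.713 and -1.417 at 18, 54, 66 and 78 h and Ackr3 2.777, 3.183, 2.582 and 2.757 at 18, 42, 54 and 66 h. In 1 edgeR fit of all libraries, Ackr3 in untreated organoids at 42 h against day 2 was -0.012, and Cxcl12 at 66 h was 0.995. With 1 library left out, that Ackr3 value was -0.065 to 0.172 (-0.057 and -0.039 without untreated replicates 2 and 3, -0.065 without day 2 replicate 3), and Cxcl12 in untreated organoids against day 2 was 1.137 to 1.222 at 54 h and 0.982 to 1.063 at 66 h. The cause was not tested.

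Listed genes called at 8 h numbered 5 without the filter, 5 in DESeq2 and 6 in 1 fit of all libraries, and 11 at 30 h in that fit. With at least 10 counts in every library, which leaves fewer genes to test, they numbered 5, 6 and 5 at 42, 54 and 66 h. At an adjusted p under 0.05 with no minimum fold they numbered 12, 35, 15, 32, 35, 32 and 33 from 8 to 78 h. The DESeq2 count at 8 h was 5 of 79, beside 566 of 30348 over all genes. For the other settings of this paragraph so far, the share over all genes is not given, so nothing is read from these counts. With 1 library left out the range was 2 to 5 at 8 h and 0 to 9 at 30 h, where all genes called went from 1406 to 616, 633 and 678 without untreated replicates 1, 2 and 3, and to 2272 without RA replicate 2. At 30 h DESeq2 called 7 of 73 listed genes, beside 1855 of 30595 over all genes. Of 137 values of named genes with a test, 20 changed their call under some alternative and 0 changed sign. With library totals Sdc4 at 18 h was -0.955 and Ramp2 at 42 h was -0.957, both inside the fold threshold. They also lost the edgeR calls of Gpc4 at 30 h (adjusted p = 0.0161) and Sdc4 at 8 h (adjusted p = 0.0127), and called Ndst1 at 42 h (1.037). Gpc4 at 30 h was also lost with at least 10 counts in every library (adjusted p = 0.0114). RLE factors gave Ndst1 0.998 at 78 h, and a prior count of 2 gave Rgs16 0.995 at 66 h, both inside the fold threshold. The replicate number as a block changed no call at 66 h. At other times the block left 6 listed genes called at 30 h and lost Rgs4 at 54 h, Ndst1 at 78 h and Sdc4 at 8 h. It also lowered all calls at 8 h from 285 to 125. DESeq2 lost Cd74 at 18 h and Rgs4 at 42 and 54 h. Depth limits Cxcr4 up to 18 h, where it rests on 7 to 38 counts, and at 30 h without RA, where it rests on 14 to 26.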
